A study of Drosophila melanogaster with 2 samples.

Results

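The Dpp and activin signalling components of *Drosophila* were examined on a pair of embryo arrays, one from *yw* control embryos and one from homozygous *mid* mutant embryos. A gene was included if it was one of 10 named ligands, receptors, Smads and cofactors (*dpp*, *gbb*, *tkv*, *sax*, *babo*, *put*, *Mad*, *Smox*, *Med* and *shn*) and had a probe set annotated to it alone. All 10 genes had one, with 11 probe sets in all, out of 10845 genes named on an array of 14010 probe sets. The *yw* stock carries mutations in *yellow* and *white* and was the control by the labels, and *mid* (*midline*) encodes a T-box transcription factor. Both collections were incubated at 25 °C for 16 h on apple juice plates, and *mid* homozygotes were told from the other embryos of their collection by a GFP-marked second chromosome balancer. The *mid* allele on the array and the number of embryos pooled are unstated in the sources used here, and the study's Methods describe RNA from heterozygous as well as homozygous *mid* embryos without mention of *yw*, although its Results speak of wild-type embryos. The labels were followed, so that loss of *mid* and other differences between these stocks cannot be told apart.

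Dpp and Gbb are secreted ligands of the BMP type. They bind a receptor made of a type II kinase, Put or Wit, and a type I kinase, Tkv or Sax, and the activated type I kinase phosphorylates the Smad protein Mad, which enters the nucleus with the common Smad Medea (Med). Activin-type ligands use the same type II receptors but signal through the type I kinase Babo to another Smad, Smox, which also pairs with Med. In the embryo the Dpp branch patterns the dorsal ectoderm and the midgut, and later takes part in dorsal closure, tracheal branching and heart formation, whereas the Babo branch is known for roles in growth, neuronal remodelling and axon guidance.

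The values were MAS5 signals, a linear intensity that summarises the probes of a probe set. The *yw* array was brighter for most probe sets, with a median of 150 against 43.3, and 9 spiked controls were also brighter on it (2.32 to 3.39 times, median 2.76). The *mid* signals were therefore multiplied to bring both arrays to the *yw* median. A floor of 97.6, which is the 40th percentile of the pooled signals, replaced any lower signal before a fold was taken, so a gene that reaches it on 1 array has only a lower bound. Replicates are lacking, as each genotype had 1 array, so there are no p-values, and a probe set was called higher or lower in *mid* at more than 2-fold. As a scale of technical disagreement, log2 fold changes of the 2 brightest probe sets of a gene, both above the floor on both arrays, differed by 0.74 (root mean square, 287 genes), which corresponds to an SD of 0.53 for a single probe set. The probe set of *mid* itself lay below the floor on both arrays (49.3 in *yw* and 56.8 in *mid*) and says nothing about the genotype. In whole embryos, a lower signal can come from fewer expressing cells or from less RNA per cell, and these cannot be told apart.

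In the *mid* mutant embryos, *Mad* and one probe set of *tkv* had signals more than 2-fold below those of the *yw* embryos, and no member was more than 2-fold higher. The type I receptor genes and *Mad* had the lower signals in *mid*, while *put*, *Smox*, *Med* and *dpp* had the higher ones, each by less than 2-fold and under every scaling except values as deposited, with which all members were lower. Of these, *dpp*, *sax* and the dimmer *tkv* probe set differed by less than 1 SD of a single probe set. All 11 member probe sets exceeded the floor on at least 1 array and 9 exceeded it on both. Of the 11, 2 were called lower and 0 higher, where 4.39% of the 8252 measured probe sets with a single gene name were called lower and 5.78% higher. Among the 5507 of these with a mean signal within the range of the members (100.5 to 857), the shares were 5.54% and 6.77%. With so few members, 2 calls are a count and not a test. Log2 fold changes were above 0 for 4 member probe sets and below 0 for 7, with a median of -0.13, where all measured probe sets had a median of 0.06.

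**Figure D1:**
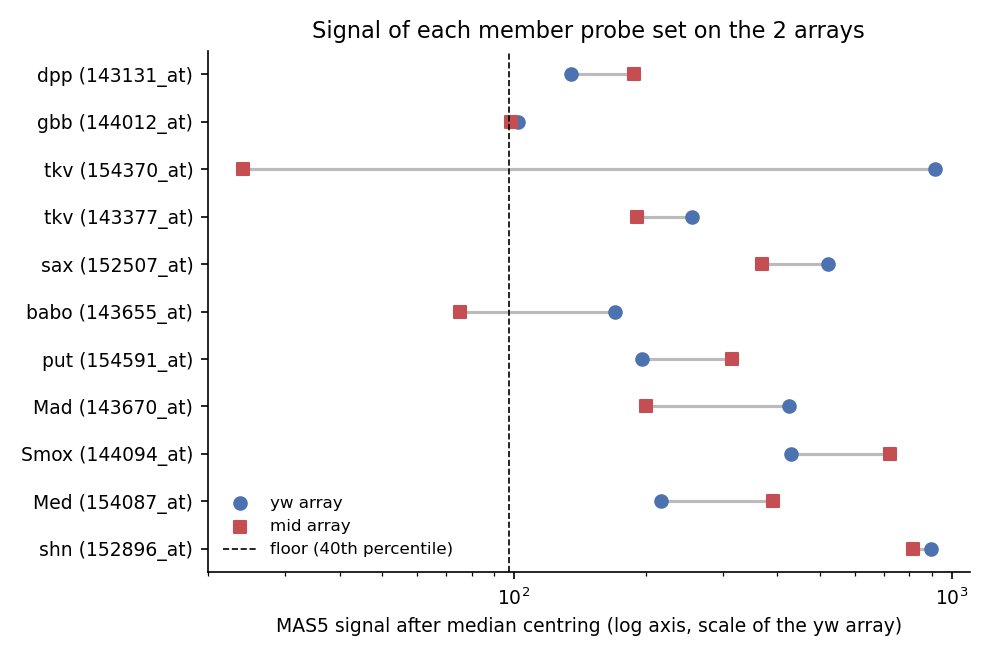
MAS5 signal of each of the 11 member probe sets (one row each) on the *yw* array (circles) and the *mid* array (squares), after median centring, on a log axis; the dashed line is the floor at 97.6. The squares lie to the left for the type I receptor genes and *Mad* and to the right for *put*, *Smox*, *Med* and *dpp*, which values as deposited would put to the left.

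Of the ligand genes, neither differed by 2-fold. *dpp* (143131_at) read 135 in *yw* and 188 in *mid*. Its log2 fold change of 0.48 is within 1 SD of a single probe set. *gbb* (144012_at), which encodes a BMP ligand known for its role at the neuromuscular junction, read 102 in *yw* and 98.6 in *mid*. These values lie just above the floor, so a large fall of *gbb* could not have been seen here. Place on the array, the percentile of a probe set among all probe sets of its own array, does not depend on a scale factor between the arrays. It was 47.4 in *yw* and 55.0 in *mid* for *dpp*, and 40.9 and 40.6 for *gbb*.

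Each of the 3 type I receptor genes had a lower signal in the *mid* mutant embryos, but only 1 of their 4 probe sets passed 2-fold. *sax* (152507_at), which encodes a type I receptor that carries much of the Gbb signal, read 523 in *yw* and 369 in *mid*. Its log2 fold change of -0.50 is within 1 SD of a single probe set. *babo* (143655_at), the receptor gene of the activin branch, read 170 in *yw* and 75.2 in *mid*. The latter is under the floor, so *babo* was at least 1.75-fold lower (log2 fold change -0.80), and without a floor the ratio was 2.27-fold. *tkv* encodes the main Dpp receptor and was measured by a pair of probe sets that disagreed. Its brighter probe set (154370_at) read 917 in *yw* and 24.0 in *mid*, at least 9.40-fold lower, and its place on the array went from percentile 85.2 to below that of the floor (40.3). Its other probe set (143377_at) read 255 in *yw* and 191 in *mid*, 1.33-fold lower (log2 fold change -0.41, also within 1 SD). Both are lower in *mid*, but they differ in size by at least 2.82 on the log2 scale.

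Of 485 genes with 2 or more measured probe sets, 5 (1.03%, *tkv* among them) had a gap of at least this size. Such a gap needs a probe set with a large fold, and these were rare in themselves. Only 0.145% of all measured probe sets had a log2 fold change as low as that of the brighter *tkv* probe set. The share therefore does not set *tkv* apart from other genes with a large fold. Agreement on a call was rare. In 85 of the 485 genes at least 1 of the 2 brightest probe sets was called, in 7 of them (8.24%) both were called in the same direction, and in 3 they were called in opposite directions. A call from a single probe set, such as that of *Mad*, has no such check. Which transcripts of *tkv* each probe set reads was not analysed here. All 4 control transcripts were brighter at the 3′ end than at the 5′ end on both arrays. The excess was 28.8-fold in *yw* and 53.5-fold in *mid* for actin, and 50.8-fold and 63.3-fold for eIF-4a. It was 21.6-fold and 17.3-fold for GAPDH, and 4.52-fold and 7.43-fold for 18S rRNA. For 3 of the 4 it was larger on the *mid* array, and for GAPDH it was larger on the *yw* array. Such an excess can be a sign of lower RNA quality, and for actin, eIF-4a and GAPDH it was large on both arrays. With 1 array each, a difference in RNA quality between the genotypes was not tested. The part of this excess in the *tkv* difference, or in the values of the other members, was not tested either.

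**Figure D2:**
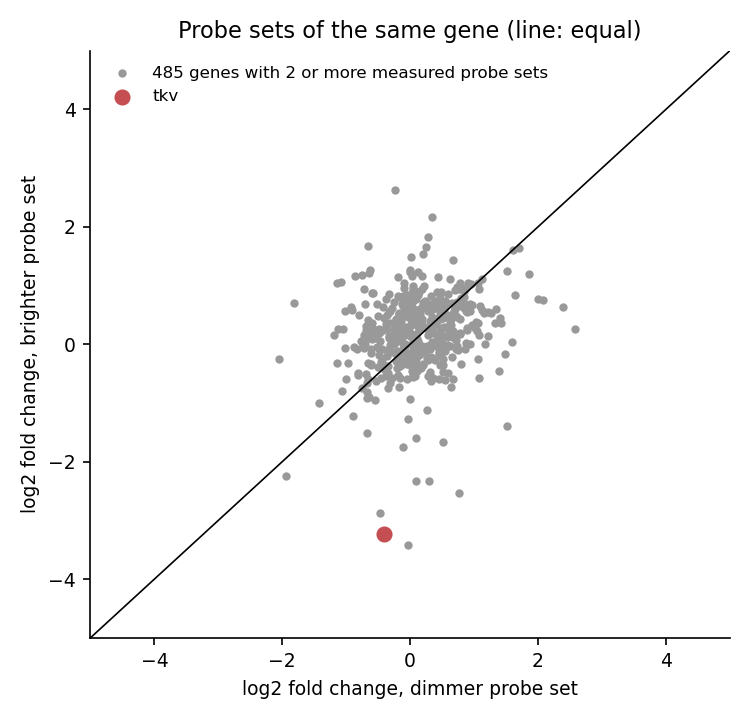
Log2 fold change (*mid* over *yw*) of the brighter probe set of a gene against that of its dimmer one, for 485 genes with 2 or more measured probe sets (grey) and for *tkv* (red); the line marks equal values. The *tkv* point lies at -3.23 by its brighter and -0.41 by its dimmer probe set, far below the line.

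The *tkv* gene is also a chromosomal neighbour of *mid*, only 16 protein-coding genes away in the RefSeq gene order of a later assembly, whereas *Mad* is 261 and *dpp* 359 genes from *mid* on the same chromosome arm. The lowest neighbour was *Cyp28d2*, a cytochrome P450 gene 5 genes from *tkv* and 21 from *mid*, at least 84.7-fold lower (8268 in *yw* and 88.7, below the floor, in *mid*). *H15*, which is adjacent to *mid* and encodes a related T-box protein, was called higher (135 and 391). Among the 25 genes on either side of *mid*, 31 probe sets were measured, of which 3 were called lower and 3 higher (9.68% each). For 50 genes on either side these were 4 lower and 6 higher of 66, and for 100 genes 6 lower and 8 higher of 128 (4.69% and 6.25%). The shares in the widest window are near those of all measured probe sets, and those in the narrowest rest on few calls. *Cyp28d2*, *H15* and the windows were chosen after their values were seen. Homozygous *mid* mutants are homozygous for the stretch of chromosome around the mutation, so loss of *mid* and a difference between stocks in this stretch cannot be told apart for *tkv*.

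*put*, which encodes a type II receptor used by BMP and activin ligands alike, had a higher signal in *mid* after median centring. *put* (154591_at) read 196 in *yw* and 315 in *mid*, 1.60-fold, and went from percentile 56.6 to 66.6. A difference between the log2 fold changes of members above the floor is free of any single scale factor. That of *put* exceeded that of *sax* by 1.18 and that of the dimmer *tkv* probe set by 1.09. As a scale, 2 probe sets of the same gene differed by 0.74 (root mean square). Only some pairs of members were compared.

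Of the Smad genes, *Mad* was called lower and *Smox* and *Med* were not called. *Mad* (143670_at), the Smad of the Dpp branch, read 426 in *yw* and 200.5 in *mid*, 2.12-fold lower, and went from percentile 73.5 to 56.5. Of all measured probe sets, 3.67% had a log2 fold change as low as that of *Mad*. *Smox* (144094_at), the Smad of the activin branch, read 430 in *yw* and 722 in *mid*, 1.68-fold higher. *Med* (154087_at), the common partner of both, read 217 in *yw* and 390 in *mid*, 1.80-fold higher, the highest fold among the members. The log2 fold change of *Smox* exceeded that of *Mad* by 1.83 and that of *Med* exceeded it by 1.93, whereas *Med* and *Smox* differed by only 0.10. Among all measured probe sets, 11.0% had a log2 fold change at least as high as that of *Smox* and 8.60% one at least as high as that of *Med*.

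**Figure D3:**
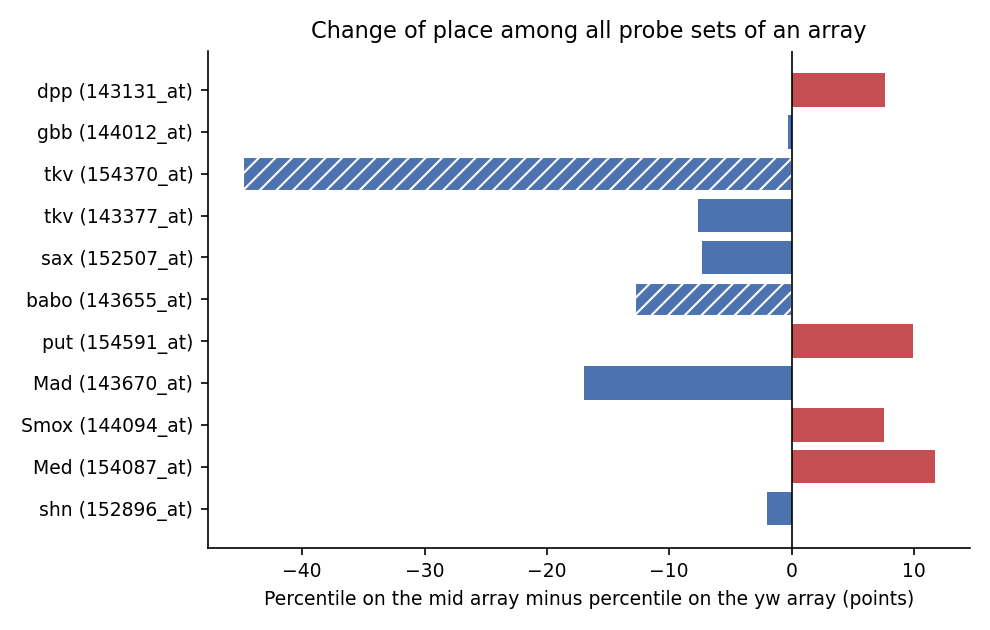
Percentile of each member probe set among all probe sets of the *mid* array minus its percentile on the *yw* array, in points (red to the right, higher in *mid*; blue to the left, lower in *mid*), with hatched bars where the *mid* signal is set to the floor and the bar is the smallest possible move. The brighter *tkv* probe set moved by -44.9 points or further and *babo* by -12.8 or further, *Mad* moved by -16.9, while *Med* moved by 11.7 and *put* by 9.94.

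*shn* (152896_at), which encodes the zinc finger protein that joins Mad and Med at silencer elements, differed little, with 896 in *yw* and 818 in *mid* (log2 fold change -0.13). Its place on the array went from percentile 84.9 to 82.9. Among the members only *gbb* had a log2 fold change closer to 0.

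With quantile normalisation, loess, the spiked controls or scaling to the mean of the central 96% of values, 4 member probe sets lay above 0 and 7 below, as with median centring, and 2 were called lower and 0 higher. With the values as deposited, which leave the brightness of the *yw* array in place, all 11 lay below 0. The balance of calls over all measured probe sets moved in the same way, from 56.9% higher with median centring to 44.7% with the equal mean of central values, 23.3% with the spiked controls and 0.279% as deposited. With the spiked controls *put* had a log2 fold change of 0.35, *Smox* of 0.42 and *Med* of 0.52, and *Mad* one of -1.41. The call of *Mad* ended when the floor was raised to the 60th percentile (-0.90), and *babo* passed 2-fold without a floor (-1.18).

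**Figure D4:**
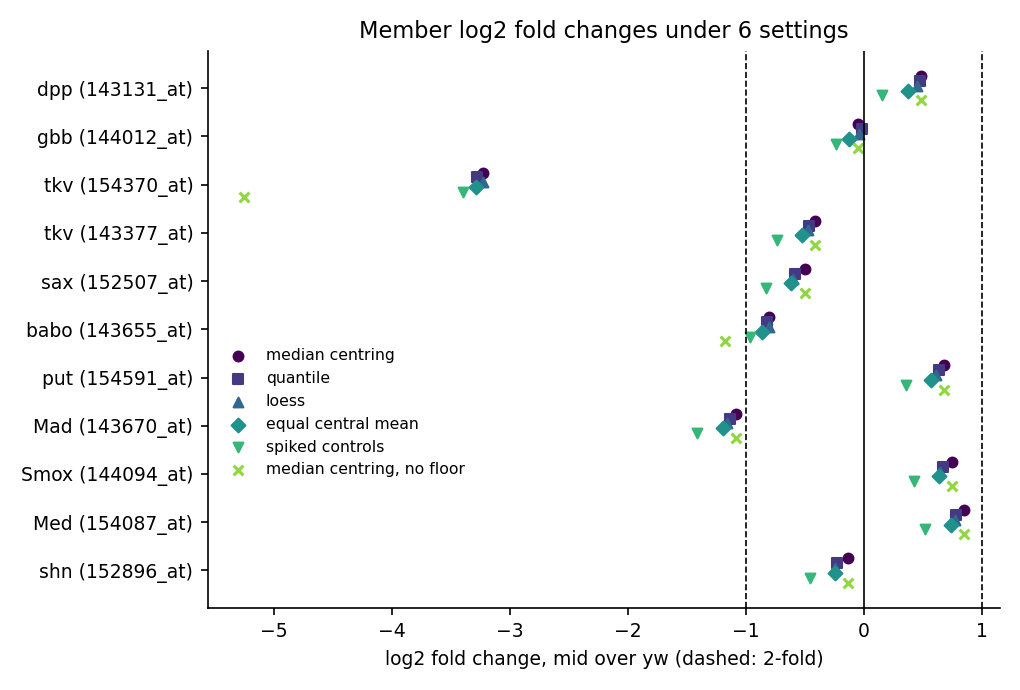
Log2 fold change (*mid* over *yw*) of each member probe set under 6 settings, given by symbol; dashed lines mark 2-fold. The spiked controls lie to the left of median centring throughout, and the brighter *tkv* probe set reaches -5.26 without a floor, where its *mid* signal is below the floor in every other setting shown.

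Of 63 other pathway genes named on the array, 49 were measured. Of these, 1 was called higher in *mid* and 3 lower, where 5.66% of 7687 measured genes were called higher and 4.53% lower by their brightest probe set. *Sara* was the only one higher. It encodes the endosomal adaptor that brings Smads to the receptors and read 192 in *yw* and 401 in *mid* (2.09-fold), a call that ended with loess, the spiked controls, the equal mean of central values and a floor at the 60th percentile. Those lower were *Smurf*, *MAN1* and *msn*. *Smurf*, which encodes the ubiquitin ligase that targets phosphorylated Mad, read 395 in *yw* and 171 in *mid* (2.31-fold lower), a call that ended with the floor at the 60th percentile (-0.79). *MAN1*, whose product sits in the inner nuclear membrane, binds Smads and dampens BMP signalling, read 1591 and 651. The list of intracellular inhibitors had only 3 measured genes, of which the third, the inhibitory Smad gene *Dad*, itself switched on by Dpp signalling, read 148 and 172.

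Of the 4 other ligand genes, all measured, none was called and all had log2 fold changes above 0 (median 0.32), a direction that ended with the spiked controls (median of about 0). *Actbeta*, which encodes an activin, read 90.1, under the floor, in *yw* and 138 in *mid*. The activin-type ligand gene *daw* (1134 in *yw* and 1374 in *mid*) and the ligand genes *mav* (691 and 893) and *myo* (1205 and 1428) differed by less than 1 SD. The other type II receptor gene, *wit*, read 112 in *yw* and 92.1, under the floor, in *mid*. The glypican gene *dlp* read 252 and 355, and *Fkbp12*, whose mammalian counterpart holds type I receptors inactive, read 11351 and 8212. Of 10 named extracellular modulators, 5 were at the floor on both arrays and none was called. The largest differences were those of the collagen IV gene *Col4a1*, whose product binds Dpp (8764 and 13807), *cv*, which encodes a protein that carries BMP ligands (381 and 265), and *tok*, a protease gene of the Tolloid family (197 and 270).

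None of the genes that Dpp is known to switch on or off was called with the floor at the 40th percentile. Of 19 with a named probe set, 13 were measured, 9 with a log2 fold change above 0 and 4 below, and the median was 0.22 against 0.06 for all measured genes, or 0.05 with the spiked controls. The largest were *C15*, a homeobox gene of the amnioserosa (85.5, under the floor, in *yw* and 176 in *mid*), the tracheal and gap gene *kni* (50.3, under the floor, and 171) and *bap*, a homeobox gene of the visceral mesoderm (284 and 451). With the floor at the 20th percentile *C15* (1.04), *kni* (1.77) and the GATA factor gene *pnr* (1.36) passed 2-fold higher and *Doc2*, a T-box gene, lower (-1.01), all under the floor of 97.6 on 1 array, and these calls also stood without a floor. In the dorsal closure cascade, in which JNK signalling turns on *dpp* in the leading edge, 11 genes were measured. One was called lower, the kinase gene *msn* (531 in *yw* and 231.5 in *mid*, 2.29-fold). Others differed by less than 2-fold the other way, with *scaf*, a JNK target that encodes a secreted protease-like protein, at 381 and 733, and the Fos gene *kay* at 166 and 280. With the floor at the 20th percentile or none, *slpr* (25.0, under the floor of 97.6, in *yw* and 160 in *mid*) passed 2-fold higher. The list median was 0.38, and again 0.05 with the spiked controls.

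The genes listed for the retrograde Gbb signal in motor neurons, the receptor gene *wit* among them, likewise had no call among 7 measured, with a median of 0.04. *FMRFa* read 173 in *yw* and 156 in *mid*, and *trio* read 330 and 338. *spict*, which encodes a protein that limits BMP signalling at the synapse, read 328 in *yw* and 530 in *mid*. *twit*, a gene that Gbb signalling induces in motor neurons, read 464 and 632, and *Liprin-alpha*, which encodes a synaptic scaffold protein, read 84.2, under the floor, and 116. *dimm*, a neuropeptide cell regulator, read 125 and 105. Of the 6 genes listed for the activin branch in neurons and growth, none was called with the floor of 97.6. The list median was 0.26, or -0.02 with the spiked controls, and 5 of the genes also stand in other lists above. *EcR*, which stands in this list only, read 53.1, under the floor, in *yw* and 110 in *mid*. Its dimmer probe set read 28.0, under the floor, and 99.0, just above it. *EcR* passed 2-fold higher with the floor at the 20th percentile (1.05) or none. Of 3 measured nuclear cofactors, the acetyltransferase gene *nej* (439 and 230) and the Ski family gene *Snoo* (182 and 67.2, under the floor) were not called, the latter having only a lower bound of its difference, and the corepressor gene *CtBP* read 1014 and 1133. With the spiked controls *nej* (-1.26) and *Snoo* (-1.06) both passed 2-fold lower, *nej* also did with loess (-1.01) and the equal mean of central values (-1.04), and *Snoo* with the floor at the 20th percentile or none (-1.44).

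**Figure D5:**
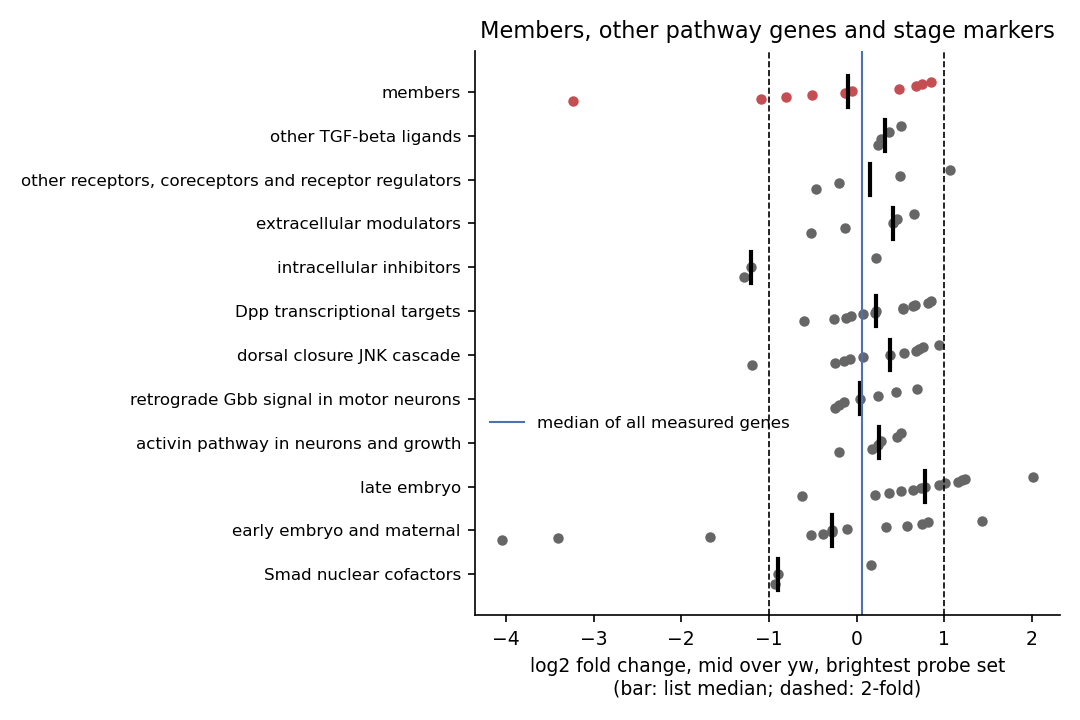
Log2 fold change (*mid* over *yw*, brightest probe set) of each measured gene of the members, the other pathway lists and the stage markers (points), with the list median (black bar), the median of all measured genes (blue line) and 2-fold (dashed lines). The members spread from -3.23, set by the brighter *tkv* probe set alone, to 0.85. The 4 other ligand genes lie together to the right of the blue line with median centring. The early and maternal genes spread more widely than the members, from -4.04 (*CycB*) to 1.44 (*twi*).

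Stage markers also moved with the genotype. Of 13 measured genes of late embryos (cuticle, muscle, neurons, glia and tanning), 5 were called higher in *mid* and none lower, where 5.66% of all measured genes were called higher. Their median was 0.78, and the summed signal of all 14 named ones was 57115 in *yw* and 76159 in *mid*. *Edg91*, a cuticle gene, read 390 and 1576, and *elav*, a neuronal gene, 110 and 245. The others were the cuticle gene *Cpr65Ea* (492 and 1154), *serp*, which encodes a chitin deacetylase (1110 and 2559), and the tanning gene *ple*, which encodes tyrosine hydroxylase (217 and 436). The glial gene *repo* went the other way (357 and 232), the only measured late gene below 0. The muscle genes *Mlc1* (log2 fold change 0.21) and *up* (0.37 by its brighter probe set) differed little, and the neuronal gene *brp* was under the floor on both arrays. With the spiked controls, a comparison added after the data were seen, only *Edg91* stayed called and the median was 0.57, and as deposited none was higher and 6 were lower. Of 13 measured maternal and early zygotic genes, 3 were called lower and 1 higher, where 4.53% of all measured genes were called lower. Their median was -0.28. The summed signal of all 19 named ones was 15756 in *yw* and 7952 in *mid*, a direction that *CycB* alone set, as the other 18 summed to 6490 and 7390. The 3 called lower were *CycB* (9266 and 562), *swa* (1038 and 55.8) and *bcd* (312 and 25.8), all known as maternal transcripts, and the higher one was the mesoderm gene *twi* (36.2 and 264). A dimmer probe set of *swa* (100 and 15.7) was not called. It lay just above the floor in *yw*, so a large fall could not have been seen with it. With the spiked controls the same genes were called, and the list median was -0.60. All named late markers but *brp* and *kkv* exceeded the floor on both arrays, and the part of embryo age in the differences of *Mad*, *tkv*, *Smurf* and *MAN1* was not tested.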

How the data were processed

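RNA of *yw* and homozygous *mid* mutant embryos was hybridised to Affymetrix *Drosophila* arrays, 1 per genotype. The deposited values are linear intensities that the authors made with MAS5, named in the submitters' processing notes, and its version, scaling target and detection calls are unstated in the sources used here. Arrays were centred on their medians and floored at the 40th percentile of pooled values, and each log2 fold change is *mid* over *yw*. The number of arrays limits the precision. Symbols came from an array annotation table, updated by gene ID to a later RefSeq release (12444 probe sets with 1 symbol, 327 with several, 1239 with none), with list symbols matched exactly or by a unique synonym. The 2-fold threshold follows the study's Methods, whose p-value 1 array per genotype cannot give. The members and lists were chosen with earlier results of these data known. All members were named, and of each other list the genes called and the 3 largest differences, with a few genes added to show a list. Lists use a gene's brightest probe set. Calling was tested on simulated data, only with changes larger than the threshold, in bright probe sets, and with noise below the SD of a single probe set. That test therefore says nothing about calls near 2-fold or near the floor, such as that of *Mad*. Alternatives were values as deposited, quantile, loess (span 0.3), spiked control and central mean scaling, no floor or one at the 20th or 60th percentile, thresholds of 1.5-fold and 3-fold, and the median over probe sets, with the stage marker lists added to them after the data were seen. The software was Python 3.11.15 with pandas 2.3.3, numpy 2.4.6, matplotlib 3.10.9 and statsmodels 0.14.6.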

Additional observations from a re-analysis of the deposited data

How the results depend on the processing

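Relative to median centring, scaling moved every log2 ratio above the floor by -1.79 as deposited, by -0.33 with the spiked controls and by -0.11 with the equal mean of central values, and member values were compared after this shift was removed. Of 85 such values under 8 settings, 79 moved by less than the SD of a single probe set, 6 moved by more and none of the called ones changed sign. The 6 were the brighter *tkv* probe set (-2.39 as deposited, -4.84 and -2.0 with the floor at the 20th and 60th percentile, -5.26 without a floor), *gbb* (0.77 as deposited) and *babo* (0.04 as deposited), all set by where the floor cuts a dim signal. The median over both *tkv* probe sets was -1.82. Against 2 member probe sets called lower, there were 10 with values as deposited, 1 with the floor at the 60th percentile and 1 at a 3-fold threshold, and against 0 called higher there were 3 at a 1.5-fold threshold. Among other pathway genes 1 was called higher, against 0 as deposited, with loess, the spiked controls, the equal mean of central values and the floor at the 60th percentile, and 7 with the floor at the 20th percentile and 7 without one. Among these 3 were called lower, against 40 as deposited, 5 with the spiked controls, 4 with loess and 4 with the equal mean of central values, 6 with the floor at the 20th percentile, 7 without one and 2 with the floor at the 60th percentile. No paired analysis was possible because each genotype has 1 array, and no array could be left out.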
